A study of Mus musculus with 4 samples.

Results

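Genes of the antioxidant, glutathione and metallothionein systems were followed in primary mouse embryonic fibroblasts (MEFs), which are connective tissue cells grown directly from embryos. They were a named list of 36 genes, and each was read from the probe sets annotated with that 1 gene symbol. On these arrays several short probes together, called a probe set, stand for 1 transcript. Of the 36 genes, 33 had such a probe set, out of 18193 genes on the array, and they had 65 probe sets in all. Prdx1 was not followed because its 5 probe sets carry a second gene symbol. Prdx5 and Prdx6 have no probe set named in the annotation used and were not analysed here. For each gene the probe set with the highest mean over the 4 arrays is given, and for Prdx2 and Mgst3, which were picked because their probe sets disagree, every probe set is given. Sod3 was too dim on its brightest probe set to pass the filter on low signal, so 32 genes and 58 probe sets entered the tests.

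The study compared 2 independent lines of RBP2-null MEFs (RBP2-/-) with 2 independent lines of wild-type MEFs, all at passage 3, with 1 Affymetrix array per line. RBP2, the protein of Kdm5a, is a demethylase that acts on histone H3, and the comparison asks which transcripts differ when it is missing. The strain, the deleted part of the gene and the sex, litter and culture day of the lines are not stated in the labels. With 2 lines a genotype, an exact two-sided permutation test cannot give a p below 0.333, so limma was used with the spread pooled over all probe sets. Such p-values cover the spread among these 4 lines and nothing beyond it. Errors given as ± beside a fold change are standard errors (SE).

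Cells keep hydrogen peroxide and other oxidants low with 2 sets of enzymes that share a supply of reducing power. Peroxiredoxins are recharged by thioredoxin, glutathione peroxidases by glutathione, and glutathione transferases attach glutathione to reactive molecules. Many of these genes are switched on by NRF2, a transcription factor that the adaptor protein Keap1 marks for destruction until oxidants or electrophiles disable it. Metallothioneins are small cysteine-rich proteins that hold zinc and copper, and metal sensing through the factor MTF1 controls them. In cultured fibroblasts these systems are exercised by the high oxygen of ordinary culture.

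The trimmed mean of the deposited signal, without the lowest and highest 2%, was 77.9 and 152 on the RBP2-null arrays and 61.8 and 101 on the wild-type arrays, so the arrays were quantile normalized. All signals below are normalized signals, and fold changes are differences of log2(signal + 9), RBP2-null minus wild type, which understate the change of dim probe sets. Wild-type replicate 1 stood apart, with correlations of 0.927, 0.927 and 0.928 with the other arrays, which correlated at 0.948, 0.951 and 0.965 with each other. All 11 fibroblast markers passed the filter, and their summed signal was 41500 and 44900 in RBP2-null lines and 40200 and 44600 in wild-type lines. The brightest markers set this sum, and dimmer ones were less level. Pdgfra had 168 and 448 in RBP2-null lines and 43.6 and 479 in wild-type lines. Fap had 102 and 66.0 in RBP2-null lines and 19.2 and 142 in wild-type lines, so wild-type replicate 1 was lowest for both. The 8 macrophage and leukocyte markers summed to 345 and 372 in RBP2-null lines and 554 and 407 in wild-type lines. Epithelial markers had 501 and 655 against 828 and 616, and skeletal muscle markers 1230 and 320 against 777 and 396. Endothelial markers had 114 and 120 against 113 and 127. For epithelial, skeletal muscle and endothelial markers the genotypes overlapped. The macrophage and leukocyte sum was lower in both RBP2-null lines. All 6 of these markers that passed the filter had estimates below 0, none with a limma unadjusted p below 0.05. Neural markers had 899 and 954 against 961 and 978, also lower in both RBP2-null lines. The 7 measured erythroid markers summed to 165 and 140 in RBP2-null lines and 207 and 188 in wild-type lines. The gap in this sum came from 1 marker, Klf1, with 24.9 and 26.4 against 98.5 and 60.2. Of the 4 erythroid markers that passed the filter, 2 had estimates above 0 and 2 below. The 2 above, Hba-a1 and Slc4a1, passed the filter only through their RBP2-null signals, so this split depends on the filter. Their mean log2 signals were 5.33 and 5.58 in RBP2-null lines and 4.34 and 4.55 in wild-type lines. The brightest probe set of the targeted gene Kdm5a had 75.5 and 80.6 in RBP2-null lines and 96.5 and 191 in wild-type lines, a log2 fold change of -0.74. Its other 4 tested probe sets disagreed in direction, at -1.24 with a limma unadjusted p of 0.0146, -0.25, 0.15 and 0.24. Which of them lie in the deleted stretch is not stated in the labels. Since bulk RNA was measured, fewer cells of a type and less RNA per cell cannot be told apart.

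None of the 32 genes passed an adjusted p of 0.05 in limma, and 1, Mgst3, had an unadjusted p below 0.05. Over all 13097 genes tested, 0.00764% passed the adjusted threshold and 2.6% had an unadjusted p below 0.05. There were 18 genes with estimates above 0 and 14 below, and the median log2 fold change was 0.068, against -0.010 over all genes tested. The whole range was -0.61 to 1.21, and 2 genes, Mgst3 and Gsta4, or 6.25%, reached an absolute value of 1, against 1.86% of all genes tested. In 5 genes both RBP2-null lines lay above both wild-type lines, against 13.4% of all genes. In 6 they lay below both, against 15.8% of all genes, and in 21 the groups overlapped. Without wild-type replicate 2, 1 listed gene passed the adjusted threshold, Gsta4. That fit has a single wild-type array, whose spread is assumed to be like that of the RBP2-null lines.

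**Figure D1:**
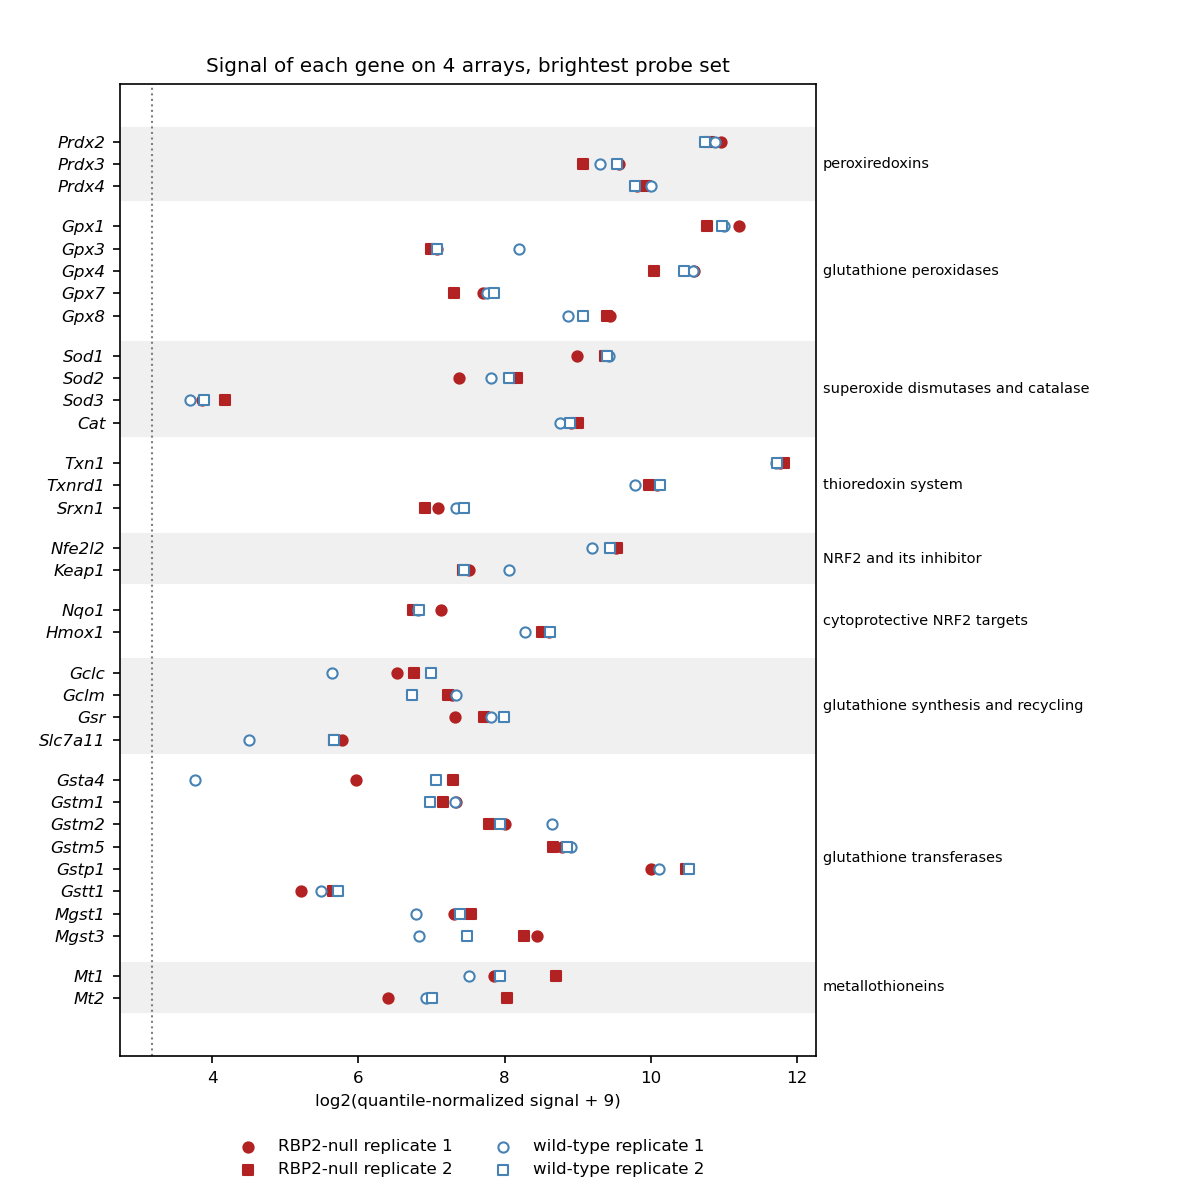
Normalized signal of the brightest probe set of 33 genes, as log2(signal + 9), on each of the 4 arrays. Rows are grouped by role, filled red symbols are RBP2-null lines, open blue symbols are wild-type lines, and the dotted line is a signal of 0. Most genes show 4 symbols close together, Mgst3 shows both RBP2-null lines above both wild-type lines, and Gsta4 and Slc7a11 have 1 low symbol, wild-type replicate 1.

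**Figure D2:**
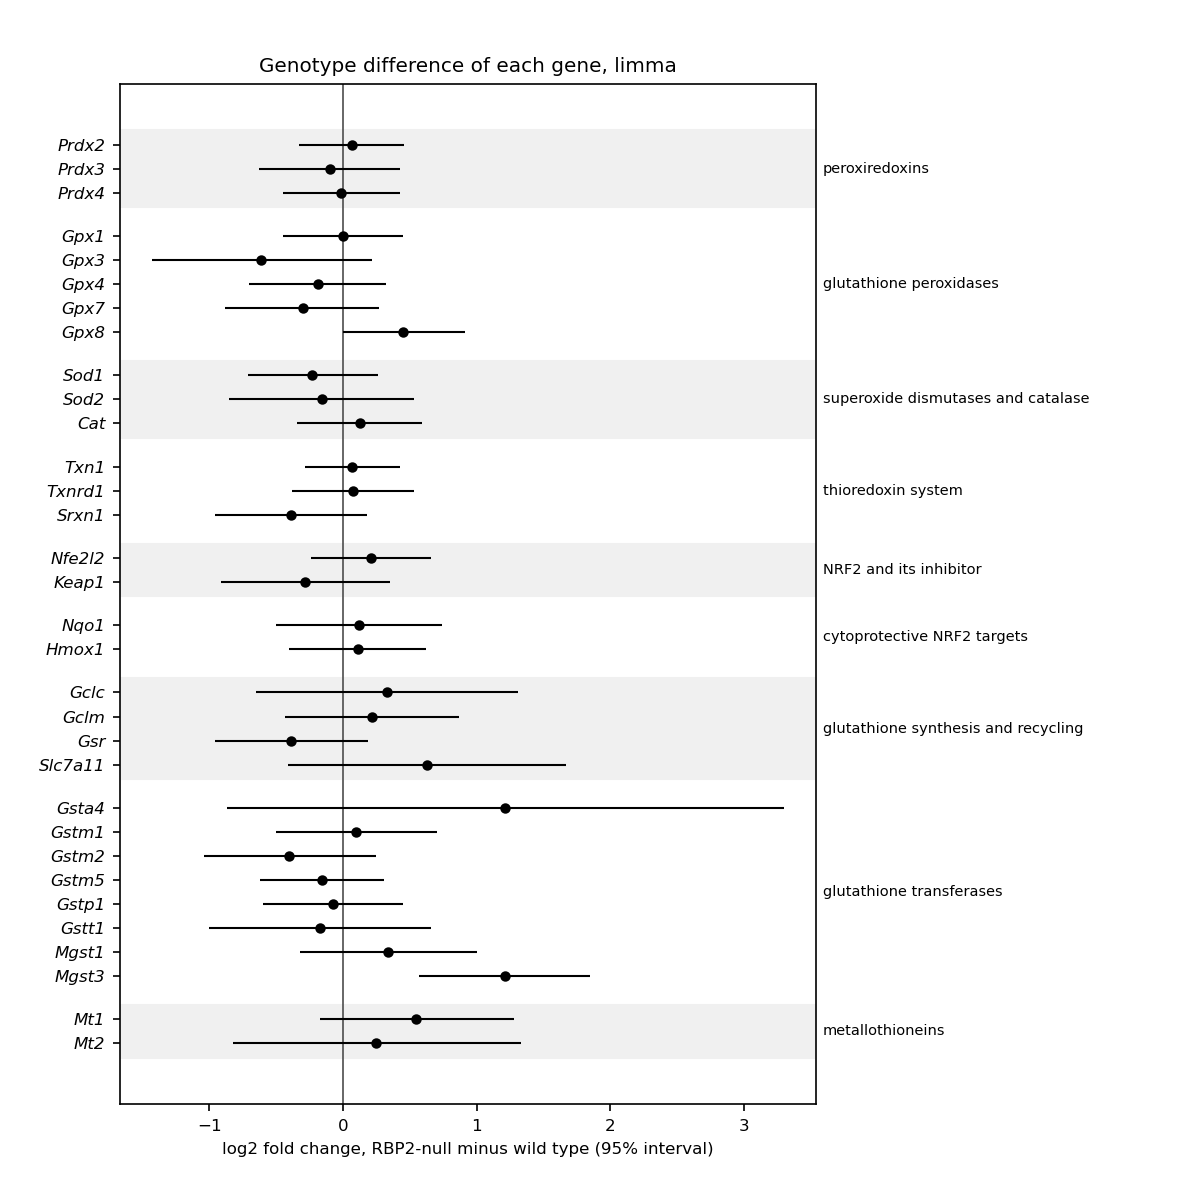
Log2 fold change, RBP2-null minus wild type, of the 32 tested genes on their brightest probe set, with the 95% interval from limma, grouped by role. The interval of Mgst3 lies wholly above 0, from 0.57 to 1.85, and that of Gsta4 is the widest, from -0.87 to 3.30.

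On brightest probe sets, the gene that differed by most relative to its error was Mgst3, which encodes a membrane-bound glutathione transferase that also reduces lipid hydroperoxides. Its brightest probe set had a signal of 340 and 300 in RBP2-null lines, against 104 and 169 in wild-type lines. Both RBP2-null lines were above both wild-type lines, and the deposited signals, 272.2 and 470.8 against 66.4 and 175.3, had the same order. The log2 signal averaged 8.36 ± 0.12 in RBP2-null cells and 7.15 ± 0.46 in wild-type cells (SD, n = 2 each). The log2 fold change of Mgst3 was 1.21 ± 0.28 (SE), or 2.31-fold, with a limma unadjusted p of 0.00226 and an adjusted p of 1. Leaving out each array in turn gave values from 0.89 to 1.53, the lowest without wild-type replicate 1. The second Mgst3 probe set read much less, with 18.5 and 16.0 in RBP2-null lines and 8.62 and 43.0 in wild-type lines. There the wild-type lines lay on either side of both RBP2-null lines, and the log2 fold change was -0.21 ± 0.58 (SE). The labels and the annotation do not say which part of the transcript each probe set reads. Of the 5 measured genes on each side of Mgst3 in RefSeq order, none had an unadjusted p below 0.05. The nearest, Aldh9a1 and Lrrc52, had log2 fold changes of 0.0019 and -0.041.

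Prdx2, a cytosolic peroxiredoxin that is also one of the abundant proteins of red cells, had 2 probe sets that gave different pictures. The brightest had 1980 and 1780 in RBP2-null lines and 1880 and 1710 in wild-type lines, so the 4 arrays were nearly level. Its log2 fold change was 0.065 ± 0.17 (SE), with 95% limits of -0.33 and 0.46. The dimmer Prdx2 probe set had 32.3 and 21.4 in RBP2-null lines, against 123 and 93.7 in wild-type lines, with no overlap. Its log2 signal averaged 5.15 ± 0.31 in RBP2-null cells and 6.86 ± 0.26 in wild-type cells (SD, n = 2 each). The log2 fold change of the dimmer Prdx2 probe set was -1.72 ± 0.33 (SE), with a limma unadjusted p of 0.00071 and an adjusted p of 1, and it lay between -1.95 and -1.41 with each array left out. The difference between the 2 Prdx2 probe sets was not itself tested.

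Erythroid markers were read beside Prdx2 because red cell precursors carry much of its product. Klf1, an erythroid transcription factor, had 24.9 and 26.4 in RBP2-null lines and 98.5 and 60.2 in wild-type lines. Its log2 fold change was -1.32 ± 0.35 (SE), with a limma unadjusted p of 0.00537. The other erythroid markers did not share one direction: Hba-a1 had 43.6 and 21.8 in RBP2-null lines and 5.43 and 19.4 in wild-type lines. Slc4a1 had 45.9 and 32.7 in RBP2-null lines and 4.50 and 31.8 in wild-type lines. Epor had 41.6 and 41.2 in RBP2-null lines and 70.8 and 48.0 in wild-type lines. The embryonic globin Hbb-y was below the filter, with 0.40 and 0.425 in RBP2-null lines and 0.50 and 8.90 in wild-type lines. Hba-x was also below it, with 6.9 and 14.8 in RBP2-null lines and 18.7 and 16.5 in wild-type lines. So was Alas2, with 1.27 and 2.45 in RBP2-null lines and 8.89 and 2.6 in wild-type lines. For Epor, Hbb-y, Hba-x and Alas2, as for Klf1, both RBP2-null lines were lower, while for Hba-a1 and Slc4a1 both were higher. The part of erythroid cells in the Prdx2 result was not tested. In RefSeq order Klf1 is also the 5th protein-coding gene to one side of Prdx2, and the 4 genes between them had log2 fold changes of 0.39 for Dnase2a, 0.017 for Mast1, -0.14 for Rtbdn and -0.13 for Rnaseh2a. Junb, the next gene on the other side, had 0.21.

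The other peroxiredoxins had small fold changes. Prdx3, the mitochondrial member, had 752 and 527 in RBP2-null lines and 622 and 733 in wild-type lines, with a log2 fold change of -0.10 ± 0.23 (SE). Prdx4, which works in the endoplasmic reticulum, had 887 and 976 in RBP2-null lines and 1010 and 867 in wild-type lines, with a log2 fold change of -0.012 ± 0.19 (SE). In both genes the RBP2-null and wild-type lines overlapped. Relative to the median shift of all genes, both turned above 0 with median-centred arrays, at 0.040 for Prdx3 and 0.12 for Prdx4. The other tested Prdx4 probe sets had 0.35 and 0.014.

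**Figure D3:**
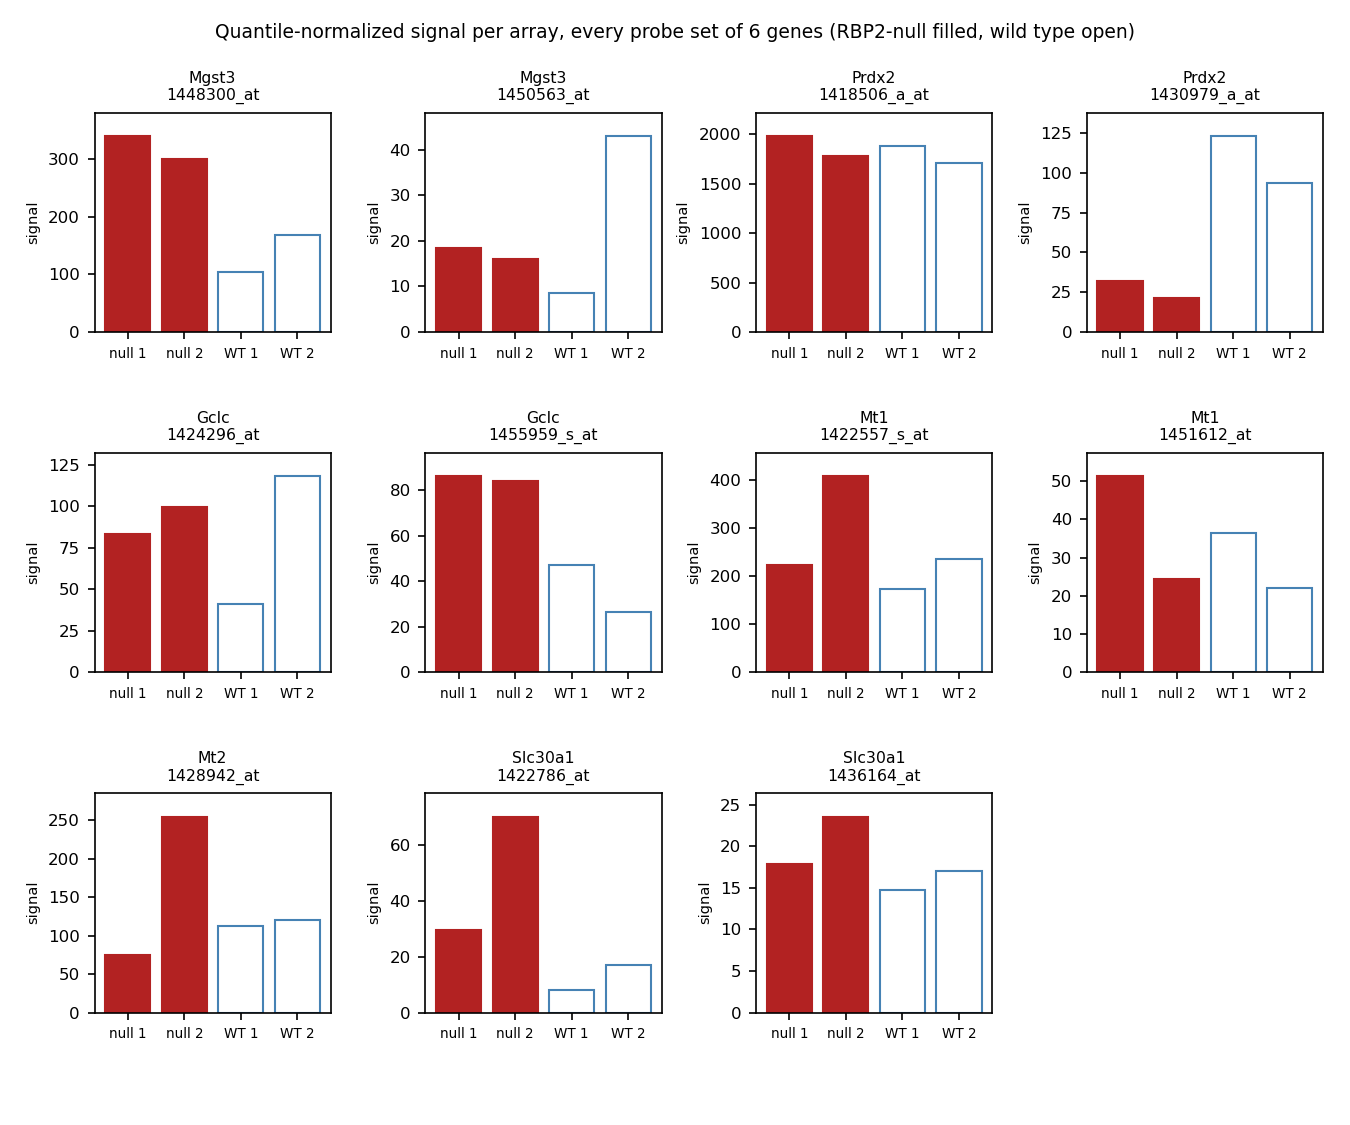
Normalized signal on each array for every probe set of Mgst3, Prdx2, Gclc, Mt1, Mt2 and Slc30a1, one panel per probe set with its identifier, and each vertical axis starting at 0. Filled bars are the RBP2-null lines and open bars the wild-type lines, with 1 array per bar. The pairs for Mgst3 and Prdx2 differ in pattern between the probe sets of 1 gene, and RBP2-null replicate 2 has the highest bar for Mt2 and for Slc30a1.

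Glutathione peroxidases, which spend glutathione to reduce peroxides, split in direction. Gpx8, an enzyme of the endoplasmic reticulum, had 686 and 667 in RBP2-null lines, against 459 and 527 in wild-type lines. Both RBP2-null lines were higher, and the log2 fold change of 0.45 ± 0.20 (SE) had a limma unadjusted p of 0.0507. It stayed between 0.36 and 0.55 with each array left out. Gpx7, its close relative in the same compartment, pointed the other way, with 201 and 150 in RBP2-null lines and 208 and 224 in wild-type lines, a log2 fold change of -0.30 ± 0.25 (SE). Gpx3, the secreted plasma form, had 125 and 119 in RBP2-null lines and 285 and 127 in wild-type lines. Only wild-type replicate 1 was high, so its log2 fold change of -0.61 became -0.050 without that array. Gpx1, the main cytosolic enzyme, had 2370 and 1730 in RBP2-null lines and 2040 and 2000 in wild-type lines, a log2 fold change of 0.0038. Gpx4, which repairs lipid peroxides in membranes and guards against ferroptosis, had 1540 and 1050 in RBP2-null lines and 1520 and 1390 in wild-type lines. Its log2 fold change was -0.19 ± 0.22 (SE), and it was 0.091 without RBP2-null replicate 2.

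Superoxide dismutases turn superoxide into hydrogen peroxide, which catalase splits into water and oxygen. Sod1, the cytosolic copper and zinc enzyme, had 500 and 659 in RBP2-null lines and 681 and 664 in wild-type lines. The gap came mostly from RBP2-null replicate 1, without which the log2 fold change was -0.028, while over all arrays it was -0.23. Sod2, the mitochondrial enzyme, had 157 and 279 in RBP2-null lines and 215 and 257 in wild-type lines, so its RBP2-null lines enclosed both wild-type lines. Sod3, the extracellular form, was dim on every array, with 5.52 and 9.12 in RBP2-null lines and 3.92 and 5.80 in wild-type lines. Catalase (Cat), found in peroxisomes, had 471 and 508 in RBP2-null lines and 425 and 470 in wild-type lines. Its log2 fold change was 0.13 ± 0.20 (SE), and a dimmer Cat probe set had 0.0094. Differences of this size were not detectable with 2 lines a genotype.

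In the thioredoxin system, Txn1, the small protein that recharges peroxiredoxins, was the steadiest gene of the list by its standard error. It had 3480 and 3630 in RBP2-null lines and 3360 and 3400 in wild-type lines, a log2 fold change of 0.071 ± 0.16 (SE). The second Txn1 probe set, dimmer but with a mean signal of 212, had -0.93. It had 77.8 and 220 in RBP2-null lines and 369 and 181 in wild-type lines, which overlapped. Txnrd1, the selenoenzyme that reduces thioredoxin, had 1080 and 1000 in RBP2-null lines and 875 and 1110 in wild-type lines, and the log2 fold change was 0.077. Its dimmer probe sets gave -0.39 and 0.31. Srxn1, sulfiredoxin, rescues peroxiredoxins that have been over-oxidised, and its brightest probe set had 127 and 111 in RBP2-null lines, against 152 and 165 in wild-type lines. Both RBP2-null lines were lower, with a log2 fold change of -0.39, a standard error of 0.25 and a limma unadjusted p of 0.155. The other 3 Srxn1 probe sets also lay below 0, at -0.53, -0.12 and -0.93.

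NRF2 itself, encoded by Nfe2l2, had 726 and 735 in RBP2-null lines and 579 and 689 in wild-type lines. Both RBP2-null lines were above both wild-type lines, but the log2 fold change was 0.21 ± 0.20 (SE). For Keap1 the 2 probe sets disagreed: the brightest had 174 and 164 in RBP2-null lines and 257 and 166 in wild-type lines, with a log2 fold change of -0.28. The other had 89.0 and 91.6 in RBP2-null lines and 55.5 and 77.0 in wild-type lines, with 0.42. Without wild-type replicate 1 the brightest Keap1 probe set had 0.028. Of the NRF2 targets that protect against quinones and haem, Nqo1, a quinone reductase, had 131 and 98.8 in RBP2-null lines and 104 and 104 in wild-type lines, a log2 fold change of 0.12 ± 0.27 (SE). Hmox1, the inducible haem oxygenase, had 381 and 356 in RBP2-null lines and 302 and 384 in wild-type lines, a log2 fold change of 0.11 ± 0.22 (SE). Both sets of lines overlapped for these targets.

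Glutathione is built by glutamate-cysteine ligase from cysteine that Slc7a11 brings in as cystine, and Gsr returns it to its reduced form. Gclc, the catalytic subunit of the ligase, had 83.5 and 99.2 in RBP2-null lines and 41.0 and 118 in wild-type lines on its brightest probe set. The wild-type lines enclosed both RBP2-null lines, and the log2 fold change of 0.33 turned to -0.35 without wild-type replicate 1. A dimmer Gclc probe set, singled out after its values were seen, had 86.0 and 83.8 in RBP2-null lines and 46.9 and 26.6 in wild-type lines. There both RBP2-null lines were higher, with a log2 fold change of 1.07, a standard error of 0.34, a limma unadjusted p of 0.0124 and an adjusted p of 1. Gclm, the regulatory subunit, had 146 and 141 in RBP2-null lines and 151 and 97.8 in wild-type lines, a log2 fold change of 0.22 that was -0.070 without wild-type replicate 2. Slc7a11 had 45.4 and 41.8 in RBP2-null lines and 13.6 and 41.9 in wild-type lines. On this brightest probe set a single low array, wild-type replicate 1, set the log2 fold change of 0.63, which was 0.050 without it. The second Slc7a11 probe set, nearly as bright, had 36.5 and 34.8 in RBP2-null lines and 25.9 and 31.0 in wild-type lines. There both RBP2-null lines were higher, with a log2 fold change of 0.26 ± 0.36 (SE). Gsr had 151 and 202 in RBP2-null lines and 218 and 246 in wild-type lines, with both RBP2-null lines lower, a log2 fold change of -0.39 ± 0.25 (SE). The second Gsr probe set had -0.27.

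Among the cytosolic glutathione transferases, Gsta4, which clears reactive aldehydes from lipid peroxidation, had the widest spread. Its only probe set had 53.5 and 147 in RBP2-null lines and 4.65 and 125 in wild-type lines. Wild-type replicate 1 was far below the other arrays, and the log2 fold change was 1.21 ± 0.91 (SE). Leaving out wild-type replicate 1 turned it to -0.46, while leaving out wild-type replicate 2, which leaves that low array as the only wild-type sample, gave 2.85 with a limma adjusted p of 0.0275. Gstm2, of the mu class, had 247 and 212 in RBP2-null lines and 392 and 236 in wild-type lines, and its log2 fold change of -0.40 was -0.042 without wild-type replicate 1. Gstm1 and Gstm5, of the same class, had log2 fold changes of 0.097 and -0.16 with standard errors of 0.26 and 0.20. Members of the mu class are similar in sequence, so a probe set that binds several transcripts, as the suffix of the brightest Gstm1 probe set marks, can read more than 1 of them. Gstp1, of the pi class, had 1020 and 1420 in RBP2-null lines and 1100 and 1460 in wild-type lines. Here replicate 2 was higher than replicate 1 in both genotypes, and the log2 fold change of -0.077 turned to 0.045 with median-centred arrays. Gstt1, of the theta class, had 28.0 and 41.2 in RBP2-null lines and 35.9 and 43.6 in wild-type lines, with a log2 fold change of -0.17 ± 0.36 (SE). Mgst1, the other membrane-bound enzyme of the list, had 149 and 178 in RBP2-null lines and 102 and 158 in wild-type lines. Its log2 fold change was 0.34 ± 0.29 (SE) and was 0.041 without wild-type replicate 1.

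**Figure D4:**
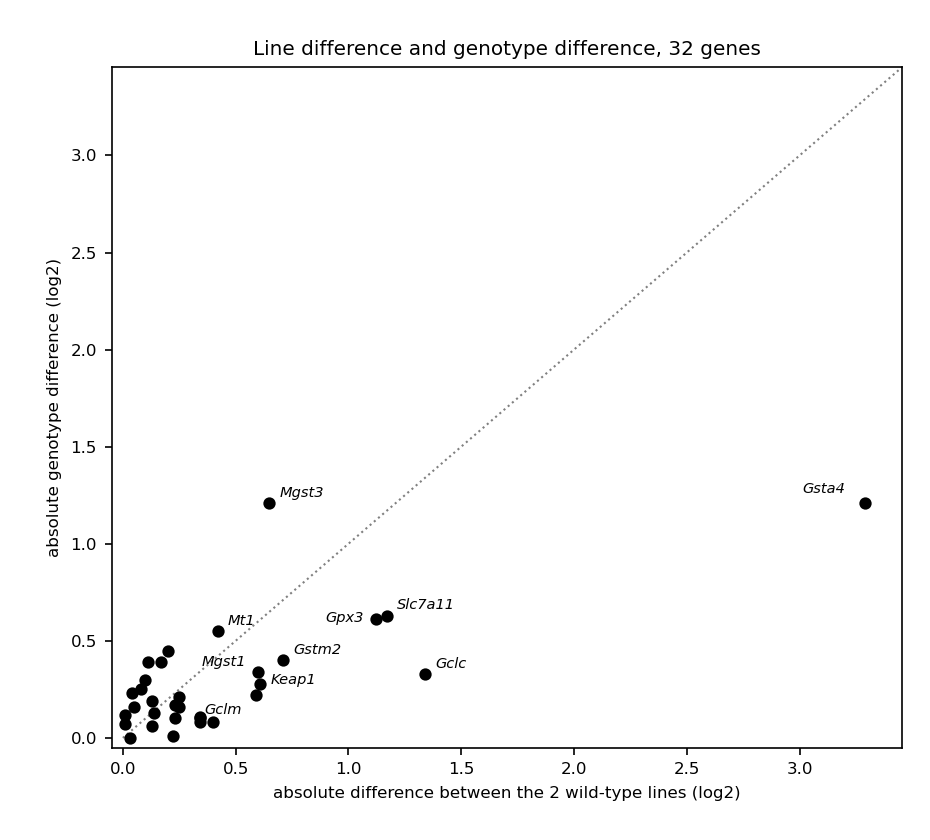
Absolute log2 difference between the 2 wild-type lines (horizontal) against the absolute log2 genotype difference (vertical), 1 point for each of 32 genes on its brightest probe set. On the dotted line both are equal. Line differences are between single arrays and genotype differences between means of 2 arrays, so points fall below the line more easily than above it. Below it lie 20 genes, led by Gsta4 with a line difference of 3.29, and Mgst3 lies above it with 1.21 against 0.65.

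Differences between lines of 1 genotype were set beside those between genotypes, but the measures are unlike. A line difference compares 2 single arrays, while a genotype difference compares 2 means of 2 arrays each. Single arrays vary more than means, so line differences tend to be larger even where the genotypes do not differ. The counts below therefore do not compare the sizes directly. For 20 of the 32 genes the 2 wild-type lines differed by more than the genotypes did, as did those of 8688 of all 13097 genes tested. The median absolute log2 difference over the 32 genes was 0.22 between genotypes, 0.20 between the RBP2-null lines and 0.24 between the wild-type lines. Over all genes tested it was 0.19, 0.28 and 0.32. Wild-type replicate 1 was the lowest of the 4 arrays for 12 of the 32 genes, or 37.5%, and for 29.1% of all genes tested. It was the highest for 7, or 21.9%, and for 33% of all genes. The median log2 fold change of the list was -0.0096 without that array.

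The metallothioneins Mt1 and Mt2, whose genes lie next to each other, bind zinc and are induced by metals and by glucocorticoids. The brightest Mt1 probe set had 224 and 408 in RBP2-null lines and 174 and 236 in wild-type lines, and Mt2 had 75.3 and 255 in RBP2-null lines and 112 and 120 in wild-type lines. RBP2-null replicate 2 was the highest array for both. RBP2-null replicate 1 lay between the wild-type lines for Mt1 and below both of them for Mt2. The log2 fold change was 0.55 for Mt1 and 0.25 for Mt2, with standard errors of 0.32 and 0.47. Without RBP2-null replicate 2 they were 0.13 and -0.55. The dimmer Mt1 probe set had 51.3 and 24.5 in RBP2-null lines and 36.5 and 22.0 in wild-type lines, a log2 fold change of 0.26, and there RBP2-null replicate 1 was the highest.

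Slc30a1, a zinc exporter that MTF1 also controls, was among the other genes of the pathway. It had 29.5 and 70.4 in RBP2-null lines, against 8.10 and 16.9 in wild-type lines on its brightest probe set. Both RBP2-null lines were above both wild-type lines, with a log2 fold change of 1.39, a standard error of 0.49, a limma unadjusted p of 0.0205 and an adjusted p of 1. However, Slc30a1 passed the filter only through its RBP2-null signals, with a mean log2 signal of 5.79 there and 4.39 in wild-type lines. That p and the order of the lines therefore depend on the filter, and Slc30a1 fell below it without RBP2-null replicate 2. Its dimmer probe set was below the filter, with 17.9 and 23.6 in RBP2-null lines and 14.7 and 17.0 in wild-type lines. Mtf1 itself had 89.2 and 76.9 in RBP2-null lines and 79.6 and 111 in wild-type lines, with a log2 fold change of -0.17.

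The promoters of these metal genes are shown with those of Mgst3 and Prdx2, so that the response elements can be seen. Over every tested probe set Mgst3 and Prdx2 were the members with the lowest limma unadjusted p, Prdx2 only on its dimmer probe set. Each sequence is the 250 bases before the gene's start in RefSeq, build GRCm38.p6, 5′ to 3′ on the gene's strand. Capitals mark matches on either strand to the antioxidant response element TGACNNNGC, through which NRF2 acts, or to the metal response element, searched as TGCACNC and TGCGCNC, which MTF1 binds.
Mt1, chr8:94178839-94179088, plus strand: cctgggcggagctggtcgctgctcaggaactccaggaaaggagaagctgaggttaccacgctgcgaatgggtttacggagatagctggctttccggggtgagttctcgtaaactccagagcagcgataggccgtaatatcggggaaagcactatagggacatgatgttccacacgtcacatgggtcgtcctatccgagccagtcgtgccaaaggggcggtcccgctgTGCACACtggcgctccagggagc
Mt2, chr8:94172368-94172617, plus strand: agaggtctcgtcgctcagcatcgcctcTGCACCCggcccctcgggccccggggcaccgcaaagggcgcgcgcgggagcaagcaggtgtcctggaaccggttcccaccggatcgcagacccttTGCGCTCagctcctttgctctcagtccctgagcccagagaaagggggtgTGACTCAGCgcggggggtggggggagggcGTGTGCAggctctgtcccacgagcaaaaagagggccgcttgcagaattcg
Slc30a1, chr1:191906531-191906780, plus strand: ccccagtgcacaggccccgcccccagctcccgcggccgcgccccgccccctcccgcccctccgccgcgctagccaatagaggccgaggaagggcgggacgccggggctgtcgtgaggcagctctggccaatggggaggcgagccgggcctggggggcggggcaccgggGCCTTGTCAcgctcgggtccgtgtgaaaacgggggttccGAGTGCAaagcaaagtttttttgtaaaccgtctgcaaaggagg
Mgst3, chr1:167393842-167394091, minus strand: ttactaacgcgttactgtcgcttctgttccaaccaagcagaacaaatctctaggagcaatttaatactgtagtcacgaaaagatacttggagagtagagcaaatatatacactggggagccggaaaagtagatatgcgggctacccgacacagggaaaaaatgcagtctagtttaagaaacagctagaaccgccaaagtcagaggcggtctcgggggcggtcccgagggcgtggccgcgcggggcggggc
Prdx2, chr8:84969372-84969621, plus strand: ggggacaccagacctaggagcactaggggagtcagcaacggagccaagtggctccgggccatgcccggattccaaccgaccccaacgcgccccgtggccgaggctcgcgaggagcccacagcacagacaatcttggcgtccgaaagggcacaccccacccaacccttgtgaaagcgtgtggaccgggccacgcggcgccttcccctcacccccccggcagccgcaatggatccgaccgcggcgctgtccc

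Over the full window, which adds 50 bases after the start, Mt1 had 3 metal element matches, Mt2 had 4 and Slc30a1 had 2. Mt2 and Slc30a1 each had 1 antioxidant element match, which no other gene shown had. Of all 32851 promoter windows in RefSeq, 25.7% held a metal element match and 12.4% an antioxidant element match. For 30 of the 36 listed genes a window was found, 37 windows in all, of which 27% held a metal element match and 24.3% an antioxidant element match. Those with an antioxidant match were Nfe2l2, Srxn1, Gstm5, Gclm, Prdx1, Mgst1, Mt2, Txnrd1 and Sod1. Nqo1, a known NRF2 target, had none in this window. The windows of Mgst3 and Prdx2 held neither motif, which says only that these letters are not in them.

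Other genes of the pathway were read from a list of 97, of which 90 were on the array and 78 passed the filter. None passed the adjusted threshold in limma. On brightest probe sets 1, Slc30a1, which passed the filter through its RBP2-null signals, had an unadjusted p below 0.05, against 2.6% of all genes. Estimates lay above 0 for 33 and below 0 for 45, and their median was -0.024. In 10 of the 78 genes both RBP2-null lines were above both wild-type lines, against 13.4% of all genes tested. In 11 they were below both, against 15.8% of all genes, so neither count stood out. After Slc30a1 the smallest unadjusted p values belonged to Gstm7, Hagh, Slc39a14, Gstm4 and Ggt5. The mu class transferases Gstm7 and Gstm4 had log2 fold changes of -0.60 and -0.58 with standard errors of 0.32 and 0.33. Both RBP2-null lines were lower for each, although a dimmer Gstm7 probe set had 0.73. That probe set passed the filter only through its RBP2-null signals, with a mean log2 signal of 5.27 there and 4.53 in wild-type lines. Hagh, which clears glutathione conjugates of methylglyoxal, had 0.48 ± 0.27 (SE), and its other probe sets had 0.30 and 1.33. The metal importer Slc39a14 had -0.54 and Ggt5, a glutathione-cleaving enzyme of the cell surface, had -0.43. Estimates lay above 0 for 48.5% of all genes tested. By role, they lay above 0 for 9 of 11 other thioredoxin and glutaredoxin genes, 8 of 12 other NRF2 targets and quinone or haem enzymes, and 4 of 7 genes of other glutathione metabolism. The same held for 3 of 7 other metal response genes, 2 of 6 genes of NADPH supply, and 3 of 11 methionine sulphoxide reductases and selenoproteins. It held for 1 of 4 oxidant sources, 2 of 9 other glutathione transferases and 1 of 11 NRF2 partners and repressors. Outside the metal response genes, no role had a gene with an unadjusted p below 0.05 on its brightest probe set. The dimmest Hagh probe set, at 1.33, had a limma unadjusted p of 0.0312. Like Slc30a1 it passed the filter only through its RBP2-null signals, with a mean log2 signal of 5.69 there and 4.35 in wild-type lines.

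Probe sets of 1 gene did not always point the same way. Of the 32 genes tested, 17 had at least 2 tested probe sets, and in 9 of these the estimates lay on both sides of 0. They were Gstm1, Keap1, Mgst3, Prdx2, Prdx4, Sod1, Sod2, Txn1 and Txnrd1. The same count over all genes was not made, so this one has no background beside it. Mgst3 and Prdx2 were picked because their probe sets disagree. Some signs differ only about 0, as for Prdx4 with -0.012 and 0.014 (SE 0.19 and 0.30). For Sod1 the estimates of the dimmer probe sets were 0.033, -0.15 and 0.056, and for Sod2 they were 0.0046 and 0.19. For Gstm1 they were -0.095, 0.62 and -0.67.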

How the data were processed

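The deposited table gives a linear intensity for every probe set on each Affymetrix array, hybridised with biotin label per the labels' protocols. How the authors summarised and scaled probes is not stated there. It held 45101 probe sets, of which 64 were Affymetrix controls and were left out. Arrays were quantile normalized because their trimmed means differed 2.46-fold. A pseudocount of 9 was added before log2, and the upper 60% of probe sets by mean log2 value were kept, 27022 in all. The genotypes were then compared with limma 3.58.1 (R 4.3.3), using a mean-dependent prior variance, two-sided tests and Benjamini-Hochberg adjustment over all kept probe sets. The number of arrays limits the precision. The fit was tested on simulated data.

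A platform annotation gave 1 symbol for 34945 probe sets, several for 932 and none for 9160, updated by Entrez number through a RefSeq table for 34741. All listed genes are named, with the 6 other pathway genes of smallest unadjusted p. The genes and lists were chosen with earlier results of these data known.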

Additional observations from a re-analysis of the deposited data

How the results depend on the processing

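Of the 32 listed genes none passed the threshold in limma, with 1 at an unadjusted p below 0.05, and the count stayed at 0 under every alternative but 2. It was 1 without wild-type replicate 2 (Gsta4), so it ran from 0 to 1 with each array left out, and 1 with the replicate block (Mgst3). None of the other pathway genes passed under any alternative, with 0 to 4 at an unadjusted p below 0.05. Over all probe sets tested there was 1 that passed, against 2 with median-centred arrays, 0 without scaling, 0 without the filter, 0 with 1 prior variance, 49 with the replicate block and 0 to 81 with each array left out. The cause of these shifts was not tested.

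The replicate number was not taken as a pairing, because the labels tie it to no litter or day and the deviations of same-numbered lines correlated at 0.113. With the replicate block the log2 fold change of Mgst3 kept its value of 1.21 with a limma adjusted p of 0.0101, and the dimmer Prdx2 probe set kept -1.72 with 0.016.

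Median-centred and unscaled arrays shifted all genes by 0.19 and 0.39, and relative to that shift 3 genes changed sign under both, namely Gstp1 with 0.045, Prdx3 with 0.040 and Prdx4 with 0.12. Neither pseudocount, filter nor prior variance changed the direction of a named gene. Leaving out 1 array changed the sign of 17 genes, whose lowest and highest log2 fold changes were Gclc (-0.35 to 0.99), Gclm (-0.07 to 0.53), Gpx1 (-0.21 to 0.23), Gpx4 (-0.47 to 0.091), Gsta4 (-0.46 to 2.85), Gstm1 (-0.07 to 0.27), Gstp1 (-0.32 to 0.16), Gstt1 (-0.36 to 0.049), Hmox1 (-0.062 to 0.28), Keap1 (-0.58 to 0.028), Mt2 (-0.55 to 1.07), Nqo1 (-0.069 to 0.31), Prdx2 (-0.012 to 0.15), Prdx3 (-0.35 to 0.15), Prdx4 (-0.12 to 0.10), Sod2 (-0.56 to 0.24) and Txnrd1 (-0.093 to 0.24). Slc30a1 without RBP2-null replicate 2 and the dimmer Mgst3 probe set without wild-type replicate 2 fell below the filter and have no value. The median of the list ran from -0.0096 to 0.14 over the alternatives. With 2 lines a genotype fold changes had a median standard error of 0.33 (log2) over all probe sets tested, which limits what can be detected.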
